A study of Mus musculus with 20 samples.

Results

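Nonclassical monocytes of interscapular brown adipose tissue (iBAT) were selected from the immune fraction of dissociated mouse tissue by their single-cell RNA profile. A cell was counted as a member when its values for *Cd300e*, *Ace*, *Adgre4*, *Treml4* and *Ear2* summed to at least 3, those of the first 4 genes to at least 2, *C1qa* plus *C1qb* stayed under 3 and *Cd79a* plus *Cd3e* under 1. The rule found 1486 cells among 50165 filtered cells of 10 lineage-positive (Lin+) libraries, out of 156759 barcodes in 20 libraries. These 9 genes chose the cells, so their levels are given below as a description and were never tested.

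Lin+ cells had been captured on magnetic beads with a cocktail of antibodies against CD5, CD11b, CD45R, Gr-1, 7-4 and Ter-119, and each library held the cells of 3 to 4 pooled mice aged 8 to 14 weeks. The male mice were C57BL/6J and gave 2 libraries per treatment. RT mice lived at 24 °C, COLD mice spent 4 days at 6 °C, and CL mice received the beta3-adrenergic agonist CL316,243 by infusion at 0.75 nmol per hour over the same number of days. Female mice of a second line, all treated with tamoxifen, were Adrb1 fl/fl with Pdgfra-CreER -/- (WT) or Pdgfra-CreER +/- (KO), and gave 1 RT and 1 COLD library per genotype. Their Cre is driven by *Pdgfra*, a receptor gene of stromal cells, and their RT libraries were made with kit version 3 where all the others used version 2 and were collected on other days than their COLD libraries, so kit, day and temperature cannot be told apart in that line.

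Nonclassical monocytes are the Ly6C-low branch of blood monocytes. They arise largely from classical, Ly6C-high monocytes under the transcription factors NR4A1 and CEBPB, crawl along the inner wall of small vessels by means of the integrin LFA-1, and clear debris from it, whereas classical monocytes enter tissue and become macrophages. Because they sit in or on vessels, cells recovered from digested fat can come from blood held in the tissue as well as from the tissue itself, and the libraries do not separate these sources.

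The members carried the profile their label names. Of 24 genes known from nonclassical monocytes that the rule did not use, 24 had a higher mean level in the members than in classical monocytes and 22 a higher mean than in C1q macrophages, and 16 were above both in all 10 libraries. Classical monocytes (5655 cells) were taken as cells with *Ly6c2* of at least 1 that reached a sum of 3 over *Ly6c2*, *Ccr2*, *Chil3* and *Vcan*. Their *C1qa* plus *C1qb* stayed under 3, *Cd79a* plus *Cd3e* under 1 and *Siglech* plus *Cd209a* under 1. C1q macrophages (10144 cells) had at least 6 counts of *C1qa* plus *C1qb* and under 1 of *Cd79a* plus *Cd3e*. Members were left out of both classes. Levels are CPM, the usual scaling of counts to a common total, of all unique molecular identifiers (UMIs) summed over the cells of a kind in a library. The Ear family holds near-identical copies, so the counts of *Ear2* are uncertain. *Gngt2*, a G protein subunit gene, averaged 1832 CPM in the members, 303 in classical monocytes and 216 in macrophages. *Itgal*, the alpha chain of LFA-1, averaged 598, 137 and 34.9 CPM in the same order, and *Spn* (CD43), a surface sialoglycoprotein, 331, 59.7 and 27.4. *Eno3*, a glycolytic enzyme gene, stood at 339 CPM against 12.0 and 12.9. *Nr4a1* averaged 1175 CPM against 374 and 161. Of the genes of classical monocytes, *Ly6c2* was at 313 CPM in the members and 1979 in classical cells, a gap that the choice of the latter fixes. *F13a1* was at 81.0 against 423 CPM, the widest gap among listed classical genes that chose neither group. *Plac8* was at 3773 against 4315 CPM, *S100a4* at 989 against 1319 and *Hp* at 374 against 559. The neutrophil genes *S100a8* and *S100a9* were higher in the members, at 3355 and 3030 CPM against 1638 and 1380 in classical cells. The macrophage gene *C1qc* was at 16.8 CPM against 2989 in macrophages. *C1qa* and *C1qb*, which encode chains of the same protein, chose both groups, so that gap is no independent support.

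**Figure D1:**
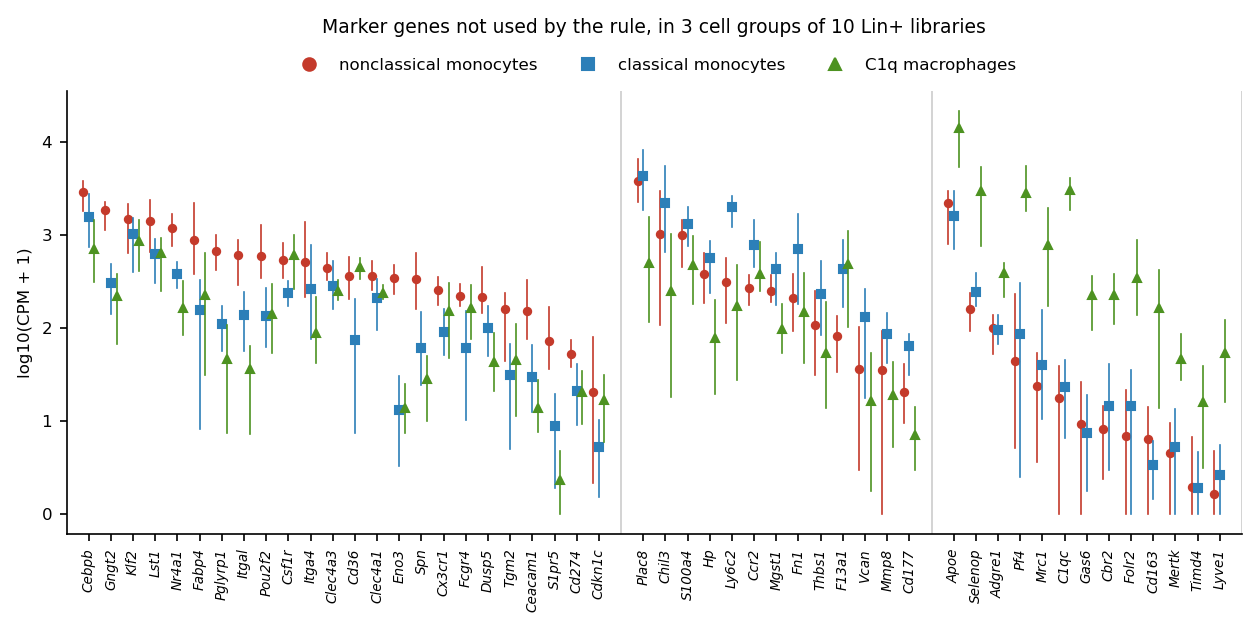
Mean levels, as log10(CPM + 1), of marker genes that did not choose the nonclassical monocytes, in nonclassical monocytes, classical monocytes and C1q macrophages. Symbols are means of 10 Lin+ libraries, vertical lines run from the lowest to the highest library, and the 3 blocks hold genes of nonclassical monocytes, classical monocytes and resident macrophages. The red circles lie above the blue squares for all 24 genes of the first block and below the green triangles in the last. *C1qc* in the last block belongs with *C1qa* and *C1qb*, which did choose the cells.

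Some members also carried RNA of other cell types. In the COLD libraries of C57BL/6J mice 84.4% and 86.7% of members held the monocyte gene *Lyz2*, against 99.5% and 98.6% at RT, and the summed level of 8 dendritic cell genes was 236 and 279 CPM against 96.8 and 61.5. In CL replicate 2, 19.6% of members held the collagen gene *Col3a1*, and 6 stromal genes summed to 2223 CPM against 4.55 to 292 in the other libraries. Of all members, 1365 were left when cells without *Lyz2* or with dendritic, stromal or endothelial genes were set aside, a choice made after the data were seen. These 1365 are called the restricted set, and results that rest on the other 121 are given with and without them. Neutrophil and erythroid genes played no part in this choice, and still summed to 21763 and 41700 CPM in CL replicate 2 of the restricted set. Genes that set classical monocytes or macrophages apart played no part either. A call that holds in the restricted set is therefore no check on RNA from those cells. Lymphocytes gave the background of the rule: 0 to 1.57% of cells with at least 3 counts of *Cd79a* plus *Cd3e* passed its 2 marker sums, at medians of 1069 to 2853 UMIs per lymphocyte against 1690 to 4957 per member. Just inside the first threshold lay 211 members with a sum from 3 to under 4, and just outside it 654 cells with a sum from 2 to under 3. No barcode was a member in more than 1 library. Library CL replicate 1 was the thinnest, with 52 members and 114534 UMIs, where the others held 120 to 250 members.

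The first question was how much of the immune fraction these cells made up. Nonclassical monocytes were 4.64% (95% Clopper-Pearson interval 4.02 to 5.33%) and 3.15% (2.66 to 3.71%) of filtered Lin+ cells in the RT libraries of C57BL/6J mice. In the COLD libraries they were 1.59% (1.32 to 1.89%) and 1.96% (1.62 to 2.33%), and in the CL libraries 0.921% (0.689 to 1.21%) and 2.80% (2.37 to 3.29%). Both COLD libraries and both CL libraries lay below both RT libraries. In the second line the share was 7.89% (6.98 to 8.89%) in WT and 6.01% (5.05 to 7.09%) in KO at RT, and 2.56% (2.23 to 2.93%) and 3.62% (3.03 to 4.29%) in COLD. Intervals cover counting error only.

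Over both lines the share averaged 5.42% ± 2.02 (SD, n = 4) at RT and 2.43% ± 0.888 (SD, n = 4) in COLD, which is -2.99 percentage points apart (two-sided exact permutation test, p = 0.0571, where 4 against 4 libraries allow 0.0286 at best). The difference was -2.12 points within C57BL/6J and -3.86 within the second line, each 2 against 2 libraries with an exact p = 0.333, the smallest such a test allows. The cold values overlapped because KO in COLD (3.62%) exceeded RT replicate 2 (3.15%). With only cells under 1 count of *Cd79a* plus *Cd3e* in the denominator, the RT and COLD libraries no longer overlapped, at means of 8.25% and 2.86% (exact permutation p = 0.0286). The same was true when each cell was thinned to 1000 UMIs, which took the means to 2.72% and 0.857% (exact permutation p = 0.0286). These tests over both lines shuffled libraries across lines, although the lines differ in sex and genotype and the RT libraries of the second line in kit. The CL difference was -2.03 points with an exact permutation p = 0.333 at 2 against 2. It was -1.09 points without CL replicate 1, -1.29 without RT replicate 1 and -1.16 when the first 4 genes of the rule had to sum to at least 4.

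Against classical monocytes the cold difference was wider, but this share also moves with the number of classical cells. In C57BL/6J these were 229 of 4072 and 390 of 4472 filtered Lin+ cells at RT, and 964 of 7676 and 595 of 6136 in COLD. In the second line they were 164 of 3167 (WT) and 91 of 2196 (KO) at RT, and 1689 of 8193 and 679 of 3509 in COLD. Members made up 45.2% and 26.6% of all monocytes of both kinds at RT, 11.2% and 16.8% in COLD, and 9.56% and 28.3% under CL. In the second line they made up 60.4% (WT) and 59.2% (KO) at RT and 11.1% and 15.8% in COLD. All 4 COLD libraries lay below all 4 RT libraries, with means of 13.7% ± 2.99 (SD, n = 4) and 47.8% ± 15.8 (SD, n = 4), which is -34.1 points apart (two-sided exact permutation test, p = 0.0286, the smallest possible). This test, too, shuffled libraries across lines. Within lines the difference was -21.9 points in C57BL/6J and -46.4 in the second line, each with an exact p = 0.333 at 2 against 2 libraries, and over 4 pairs of replicate number or genotype the exact sign-flip p was 0.125; each is the smallest its design allows. Leaving out any 1 library gave -29.9 to -41.2 points with an exact p = 0.0571, the smallest 3 against 4 libraries allow. The CL and RT values overlapped (-16.9 points, exact permutation p = 0.667), and the difference was -7.62 points without RT replicate 1 and -7.57 without CL replicate 1. They no longer overlapped in the restricted set, at 9.84% and 31.0% under CL against 43.5% and 56.2% at RT (-29.4 points), or with cells thinned to 1000 UMIs (-22.9 points), each with an exact permutation p = 0.333, the smallest 2 against 2 libraries allow. The classical rule also took in cells with NK and T cell genes, and at RT its cells held 700 and 1269 CPM of *Gzma* (granzyme A). In the restricted set, where NK and T cell genes of the classical cells were lower, the RT and COLD means were 60.9% and 16.0% (exact permutation p = 0.0286). The 5 genes of the rule themselves summed to 2939 and 3072 CPM at RT, 1591 and 2197 in COLD and 2881 and 1850 under CL, and the part of these lower marker levels in the shares was not tested.

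**Figure D2:**
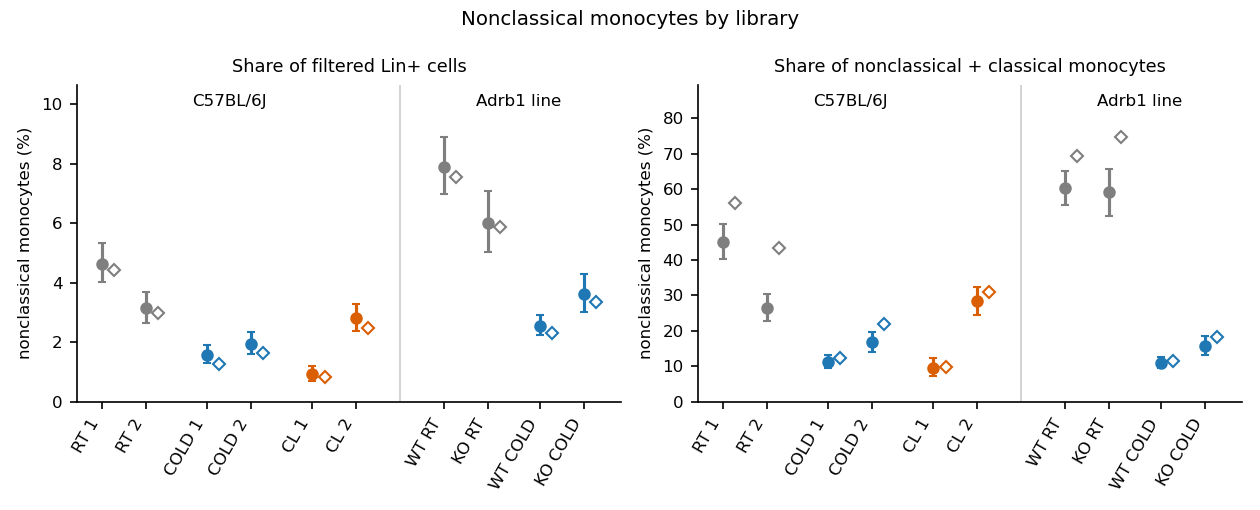
Nonclassical monocytes as a percentage of all filtered Lin+ cells (left) and of nonclassical plus classical monocytes (right) in each of 10 libraries. Filled circles with bars are the shares with 95% Clopper-Pearson intervals, and open diamonds the restricted set; gray is RT, blue COLD and orange CL. In the right panel the 4 COLD libraries lie between 11.1% and 16.8%, below all 4 RT libraries, which start at 26.6%.

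The second question was what the members expressed in the cold. Counts were summed per library over the members and tested with edgeR's quasi-likelihood test over the 6 libraries of C57BL/6J mice, with Benjamini-Hochberg adjustment over all 5954 genes tested; a gene was called at an adjusted p under 0.05. Cold exposure changed 184 genes (3.09% of those tested), of which 128 (2.15%) rose and 56 (0.941%) fell. The rise took in 20 of 36 interferon-response genes and 7 of 10 chemokine genes, and the fall 4 of 24 nonclassical identity genes. The median log2 fold change was 2.11 among risen genes and 1.33 in size among fallen ones. With replicate number as a block 297 genes were called, all 184 among them, and in the restricted set 152, of which 118 were shared. The count rested on few libraries: it was 30 without RT replicate 1, 33 without COLD replicate 1, 95 without RT replicate 2, 129 without COLD replicate 2, 222 without CL replicate 2 and 286 without CL replicate 1. A core of 22 genes stayed past the threshold whichever of the 6 libraries was left out, and 20 of these also passed in the restricted set. Each of these fits left 1 group with a single library, which was assumed to vary like the other groups. Log2 fold changes are given with an approximate standard error (SE). It was taken as the size of the change divided by the square root of the quasi-likelihood F statistic.

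Interferon-response genes formed the broadest group. Of 40 listed genes 36 could be tested; 20 rose, none fell, and all 36 had a fold change above 0, with a median log2 fold change of 1.63 against 0.00 over all genes tested. Within the restricted set 19 rose, with a median of 1.80. *Isg15*, a ubiquitin-like protein that is attached to target proteins, stood at 67.1 and 118 CPM at RT, 712 and 428 in COLD and 190 and 204 under CL (COLD against RT 2.52 ± 0.32, adjusted p = 0.0022). *Irf7*, a transcription factor that amplifies interferon production, was at 50.5 and 114 CPM at RT and 401 and 414 in COLD (2.22 ± 0.31, adjusted p = 0.00346). For both genes the COLD libraries were far above both RT libraries, and for *Isg15* the CL libraries lay between. *Ifit3*, whose product belongs to a family that binds foreign RNA, was at 1.89 and 11.6 CPM at RT and 184 and 162 in COLD (4.54 ± 0.44, adjusted p = 0.000264). Its neighbors on chromosome 19, *Ifit1* and *Ifit2*, rested on 3 and 2 UMIs at RT against 112 and 77 in COLD, pooled ratios of 38.1 (exact 95% interval 12.7 to 188) and 39.3 (10.5 to 330). *Oasl1*, a regulator of *Irf7* translation, had 0 UMIs in both RT libraries and 55 in COLD, which makes it at least 18.7-fold higher in COLD against a floor of 3 counts over the RT group; its call was lost without COLD replicate 1. *Usp18*, which removes ISG15 from proteins, went from 7.57 and 9.70 CPM to 104 and 98.0 (3.39 ± 0.39, adjusted p = 0.00117). *Bst2* (tetherin), *Rsad2* (viperin), *Oasl2*, *Rtp4*, *Slfn5*, *Ifi204*, *Ifi209*, *Ifi47*, *Xaf1*, *Phf11d*, *Isg20*, *Cmpk2* and *Trim30a* rose with log2 fold changes from 1.22 to 3.27, and each lost its call when RT replicate 1 was left out. *Ifi27l2a*, at 901 and 1492 CPM at RT and 1348 and 2024 in COLD, did not pass (0.41 ± 0.39, adjusted p = 0.631).

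Chemokine genes rose in the same libraries. Of 10 tested, 7 rose, with a median log2 fold change of 2.21, and 5 rose in the restricted set. *Cxcl10*, an interferon-induced ligand of CXCR3 on T and NK cells, stood at 18.6 and 26.9 CPM at RT, 581 and 449 in COLD and 49.6 and 52.7 under CL, the smallest adjusted p of all genes (4.37 ± 0.28, adjusted p = 3.19e-05). *Ccl7* and *Ccl2*, ligands of CCR2, the receptor by which classical monocytes are recruited, were at 10.2 and 17.1 CPM and at 56.4 and 112 CPM at RT. In COLD they were at 430 and 269 CPM (4.57 ± 0.39, adjusted p = 0.000264) and at 561 and 631 CPM (2.73 ± 0.28, adjusted p = 0.000477). These 3 genes kept their calls without any 1 library and in the restricted set. *Ccl4* (2.22 ± 0.50, adjusted p = 0.0369) and *Ccl9* (1.37 ± 0.29, adjusted p = 0.0285) also rose, each lost without RT replicate 1 and without COLD replicate 1, while *Ccl5* and *Cxcl16* rose among all members but did not pass in the restricted set (adjusted p = 0.253 and 0.121). *Cxcl2* was at 869 and 777 CPM at RT and 1877 and 1586 in COLD and did not pass (0.97 ± 0.34, adjusted p = 0.164). None of 7 tested cytokine genes, *Il1b* and *Tnf* among them, was called by edgeR, and 1 had an unadjusted p under 0.05.

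**Figure D3:**
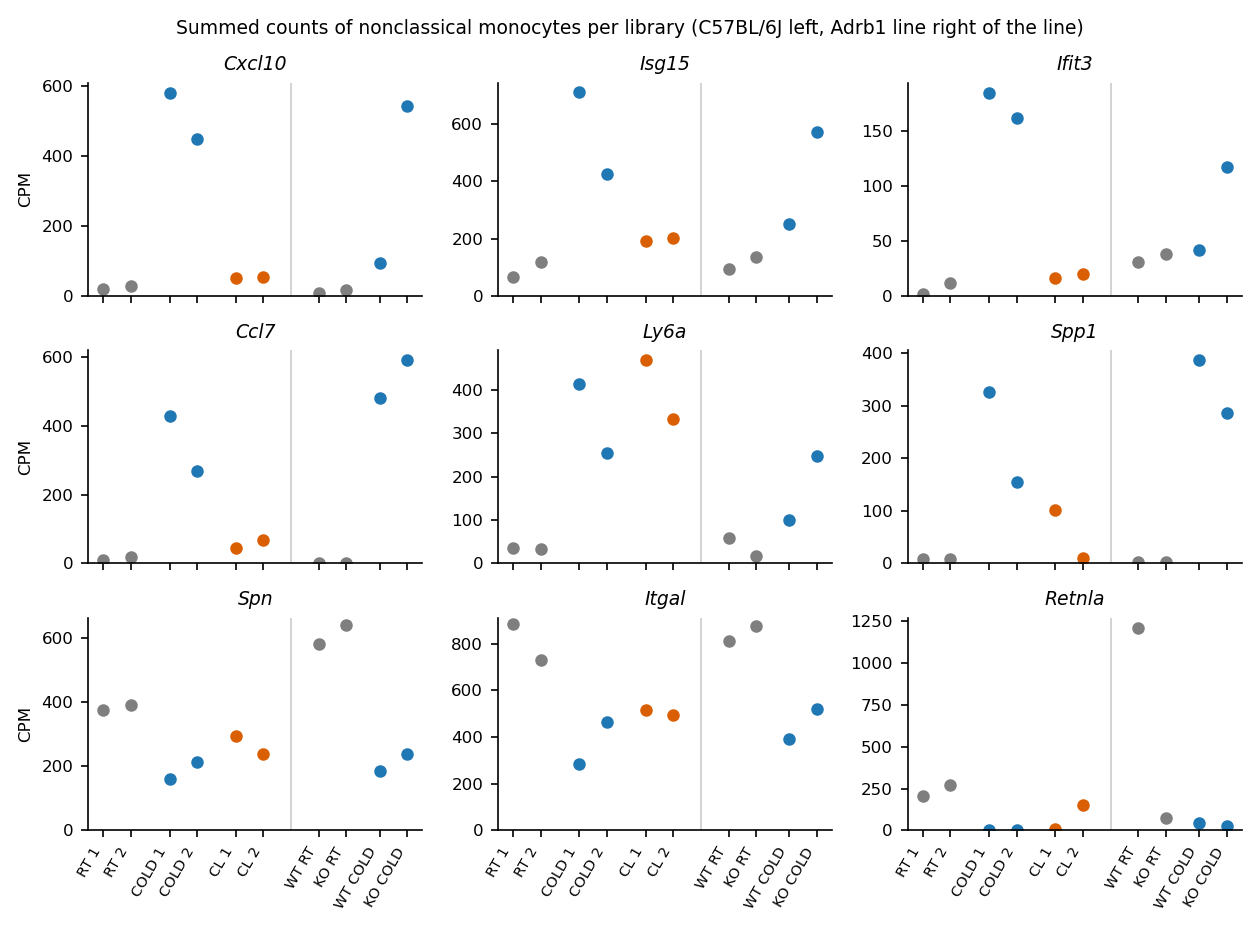
Levels of 9 genes in the summed counts of nonclassical monocytes, in CPM, with 1 point per library; gray is RT, blue COLD and orange CL, and each panel has its own axis from 0. For *Cxcl10*, *Isg15*, *Ifit3*, *Ccl7*, *Ly6a* and *Spp1* both COLD libraries of C57BL/6J mice lie above both RT libraries, and for *Spn*, *Itgal* and *Retnla* below them.

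Factors of the IRF family that act in the interferon response bind repeats of GAAA in DNA. RefSeq promoter sequences of GRCm38.p6, the assembly of the mm10 build that the authors mapped to, were searched in the 250 bases before the transcript start on both strands for GAAA followed, after any 2 bases, by a second GAAA. The motif was present for 15 of the 28 tested interferon-list genes with a promoter entry (53.6%), among them 7 of 17 that rose in the cold (41.2%) and 8 of 11 that were not called (72.7%), and for 3.46% of all 27025 genes of the table. It was present for 1 of 5 chemokine genes, for 16 of 83 other risen genes (19.3%) and for 2 of 37 fallen genes (5.41%). The 5 risen interferon or chemokine genes with the motif and the highest COLD level are shown with 20 bases on each side of the match nearest the start, on the strand of the gene, with every match in the window in capitals.
*Isg15*, chr4:156200855-156200904, minus strand: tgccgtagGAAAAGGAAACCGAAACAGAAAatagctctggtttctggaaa
*Cxcl10*, chr5:92349073-92349122, minus strand: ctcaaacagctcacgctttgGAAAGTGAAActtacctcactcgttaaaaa
*Bst2*, chr8:71537567-71537616, minus strand: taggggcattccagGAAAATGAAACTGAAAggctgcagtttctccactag
*Slfn5*, chr11:82951927-82951976, plus strand: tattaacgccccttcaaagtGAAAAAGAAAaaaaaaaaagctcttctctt
*Rsad2*, chr12:26456543-26456592, minus strand: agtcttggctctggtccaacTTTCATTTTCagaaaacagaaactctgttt
In *Rsad2* the capitals are the reverse complement of the motif. The window of *Isg15* held 3 overlapping matches, that of *Bst2* 2 and the others 1 each. The match nearest the start ended 56 bases before the transcript start in *Isg15*, 203 in *Cxcl10*, 114 in *Bst2*, 145 in *Slfn5* and 110 in *Rsad2*. These are matches of letters and not binding measured here.

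Of 9 MHC class II genes, which serve antigen presentation to CD4 T cells, 5 rose among all members, with a median log2 fold change of 1.10. *H2-Aa* was at 1097 and 1365 CPM at RT and 5272 and 4823 in COLD (1.94 ± 0.24, adjusted p = 0.00196), and *Cd74*, the invariant chain, at 3617 and 4607 against 10142 and 8656 (1.10 ± 0.24, adjusted p = 0.0319). Both calls were lost without RT replicate 1, and that of *Cd74* also without RT replicate 2 or either COLD replicate. In the restricted set 2 of 6 testable genes rose, with a median of 1.13, *H2-Aa* (adjusted p = 0.0436) and *H2-Eb1* (adjusted p = 0.0161), and *H2-Aa* stood at 628 and 810 CPM at RT and 2780 and 1201 in COLD. The summed class II level there was 4357 and 5816 CPM at RT and 14285 and 6102 in COLD, so that COLD replicate 2 lay near RT replicate 2. Of 4 dendritic cell genes tested *Cd209a* rose (1.65 ± 0.40, adjusted p = 0.0493), a call lost without any 1 of the RT or COLD libraries. MHC class I genes gave no call in 10 tested (2 at an unadjusted p under 0.05), with a median of -0.06, and *B2m* was at 7210 and 8608 CPM at RT and 6989 and 7867 in COLD.

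Cell cycle genes rose through few cells. Of 13 tested 7 rose, with a median log2 fold change of 2.62, among them *Pclaf*, a partner of PCNA in DNA replication, at 5.64 and 1.91 CPM at RT and 127 and 68.9 in COLD (4.49 ± 0.58, adjusted p = 0.00229). *Top2a*, *Birc5*, *Mki67*, *Ccnb2*, *Cenpf* and *Stmn1* were the others, and *Pclaf* and *Stmn1* alone kept their calls without any 1 library. In COLD replicate 1, 13 of 122 members had at least 8 UMIs over the 16 listed genes and held 87.4% of all such UMIs, and in COLD replicate 2 it was 9 of 120 members with 84.2%. At RT 2 of 189 and 1 of 141 members reached this number. Of these COLD cells, 3 and 3 held a UMI of *Flt3*, *Xcr1*, *Cd209a* or *Siglech*, genes of dendritic cells. In the restricted set only 3 cell cycle genes had testable counts and none was called (*Stmn1* 1.16, adjusted p = 0.141), and the list summed to 222 and 389 CPM in COLD against 211 and 164 at RT.

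Genes known from lipid-associated macrophages rose in part. Of 12 tested 4 rose: *Gpnmb*, *Spp1* (osteopontin), *Fabp5* and *Plin2*, and 6 rose in the restricted set. *Fabp5*, a fatty acid carrier, stood at 43.6 and 41.8 CPM at RT, 368 and 428 in COLD and 283 and 110 under CL (COLD against RT 3.13 ± 0.32, adjusted p = 0.000468). *Spp1* was at 7.58 and 7.75 CPM at RT and 326 and 154 in COLD (4.83 ± 0.69, adjusted p = 0.00419), a call lost without RT replicate 1. *Gpnmb* had 1 UMI at RT and 65 in COLD, a pooled ratio of 66.4 with an exact interval of 11.5 to 2662. *Spp1*, *Gpnmb* and *Fabp5* were abundant in the COLD macrophages of the same libraries, at means of 1400, 1352 and 2373 CPM. The part of free macrophage RNA in the members' counts was not tested. *Trem2* and *Lgals3*, well-known genes of such macrophages, were not called. *Lgals3* was at 1212 and 1593 CPM at RT and 2222 and 1911 in COLD (0.46 ± 0.25, adjusted p = 0.359). None of 6 tested resident macrophage genes was called, and none had an unadjusted p under 0.05.

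Receptors for antibody and complement rose in 3 of 11 tested. *Fcgr1* (CD64), the high-affinity IgG receptor that marks classical monocytes and macrophages, was at 13.2 and 55.5 CPM at RT and 307 and 172 in COLD (2.72 ± 0.46, adjusted p = 0.00959). The anaphylatoxin receptor genes *C5ar1* (1.497 ± 0.319, adjusted p = 0.0291) and *C3ar1* (2 UMIs at RT, 63 in COLD, pooled ratio 32.2 with an interval of 8.54 to 271) were the others. All 3 calls were lost without RT replicate 1 and without COLD replicate 1, that of *C5ar1* also without RT replicate 2, and all held in the restricted set. The restricted set put no cells aside by genes of classical monocytes or macrophages. *Fcgr1* was found in 3.70% and 14.2% of members at RT and in 41.0% and 31.7% in COLD. The part of RNA from such cells was not tested. *Fcgr4*, the IgG receptor typical of nonclassical monocytes, was at 185 and 215 CPM at RT and 194 and 296 in COLD (0.20 ± 0.25, adjusted p = 0.722). Of the classical monocyte genes 1 of 14 rose, *Vcan*, a matrix proteoglycan (5.68 and 1.95 CPM at RT, 61.4 and 29.5 in COLD, 3.38 ± 0.64, adjusted p = 0.0196), a call lost without COLD replicate 1 or either RT replicate. *Chil3*, a chitinase-like protein, was at 105 and 415 CPM at RT and 697 and 1306 in COLD and did not pass (1.86 ± 0.51, adjusted p = 0.0796), but passed in the restricted set (adjusted p = 0.0232).

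Other risen genes outside the lists included 6 of the core of 22, named here after their values were seen. *Cd72*, an inhibitory lectin known from B cells, stood at 5.36 and 1.82 CPM at RT, 224 and 251 in COLD and 0.00 and 25.3 under CL (5.76 ± 0.53, adjusted p = 0.000264). It was at 125 and 68.1 CPM in COLD in the restricted set. The summed B cell genes were level, at 218 and 242 CPM at RT and 234 and 224 in COLD, but the rule itself holds back B cells through *Cd79a*. In the same libraries *Cd72* averaged 140 CPM at RT and 206 in COLD in C1q macrophages, and 15.9 and 106 in classical monocytes. The part of RNA from those cells was not tested. *Ly6a* (Sca-1) rose from 35.6 and 33.2 CPM to 415 and 254 (3.16 ± 0.30, adjusted p = 0.000264). *Rgs1*, a brake on chemokine receptor signaling, rose from 54.5 and 55.9 CPM to 397 and 387 (2.71 ± 0.25, adjusted p = 0.000264). *Axl*, a receptor for dying cells (3.00 ± 0.43), *Ms4a6d* (2.86 ± 0.41) and *Rab7b* (3.09 ± 0.39) were the others.

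**Figure D4:**
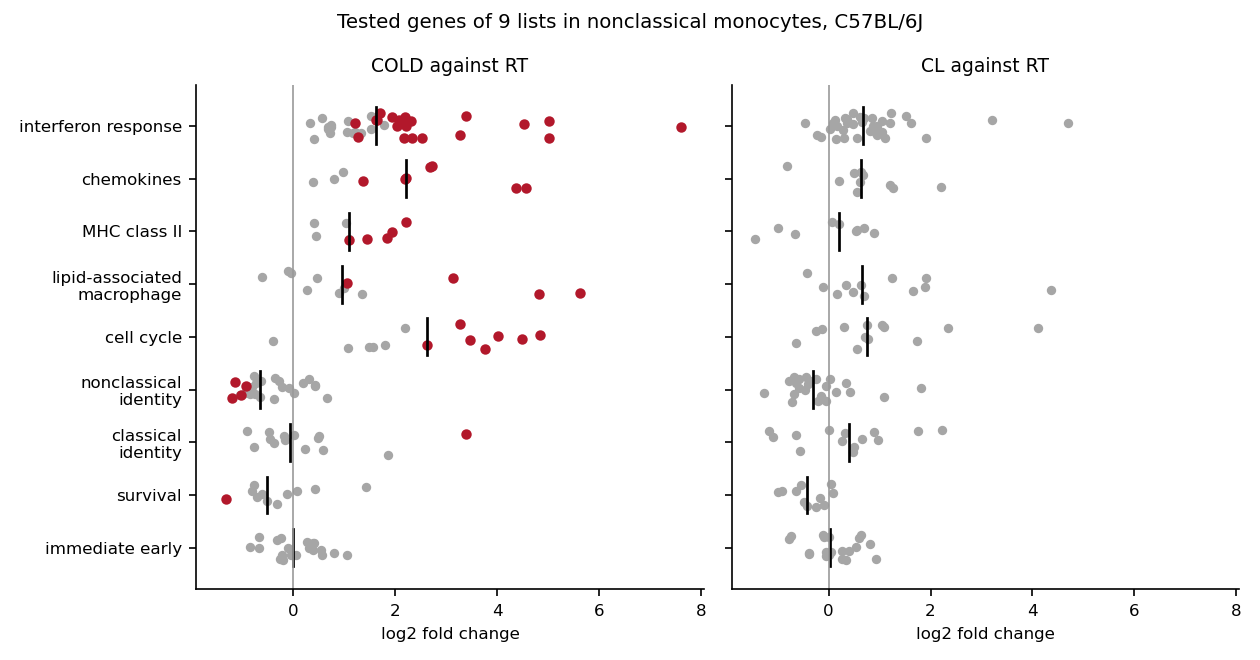
Log2 fold changes of every tested gene of 9 lists in nonclassical monocytes of C57BL/6J mice, COLD against RT (left) and CL against RT (right), on a shared axis. Each point is a gene, red where the adjusted p is under 0.05, and black bars are list medians, at 1.63 for the interferon list and -0.64 for the nonclassical identity list in COLD. No gene of these lists is red on the right.

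Of the 24 genes of nonclassical identity 4 fell and none rose in the cold, with a median log2 fold change of -0.64 and 18 of 24 below 0. *Spn* fell from 376 and 390 CPM to 158 and 214 (-1.14 ± 0.22, adjusted p = 0.0238). *Itgal* fell from 883 and 731 CPM to 286 and 465 (-1.20 ± 0.29, adjusted p = 0.0467). *Itga4*, a chain of the integrin VLA-4 (-0.93 ± 0.21, adjusted p = 0.0396), and *Pglyrp1*, a peptidoglycan-binding protein (-1.03 ± 0.25, adjusted p = 0.0493), fell too. Each of the 4 lost its call without COLD replicate 1 or either RT replicate, all but *Spn* also without COLD replicate 2, and of them *Spn* alone passed in the restricted set (-0.98, adjusted p = 0.0318), where *Itgal* was at -0.92, *Itga4* at -0.79 and *Pglyrp1* at -0.79. *Nr4a1*, at 1634 and 1470 CPM at RT and 761 and 1090 in COLD, did not pass (-0.84 ± 0.31, adjusted p = 0.188), nor did *Csf1r*, the receptor for the survival factor CSF1 (-0.81 ± 0.25, adjusted p = 0.115). *Bcl2*, an inhibitor of cell death, was the 1 gene of 11 in the survival list that fell (111 and 121 CPM to 46.7 and 53.7, -1.32 ± 0.26, adjusted p = 0.0253), a call lost without any 1 RT or COLD library and in the restricted set (adjusted p = 0.0607).

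The largest fall was that of *Retnla* (RELM-alpha), a product of alternatively activated macrophages, from 207 and 272 CPM to 1.74 and 3.67 (-6.31 ± 0.81, adjusted p = 0.00229); 248 UMIs at RT stood against 3 in COLD, a pooled ratio of 0.0124 (0.00253 to 0.0365). It held without any 1 library and in the restricted set. In C1q macrophages of the same libraries *Retnla* averaged 1764 CPM at RT and 253 in COLD, and in classical monocytes 202 and 9.40. *Slc12a2*, a sodium-potassium-chloride cotransporter, fell from 190 and 146 CPM to 47.6 and 44.3 (-1.96 ± 0.26, adjusted p = 0.00317); it was at 3.20 CPM in RT classical monocytes and 11.9 in RT macrophages. *Dusp16*, a phosphatase of JNK (-1.38 ± 0.23, adjusted p = 0.00959), *Gramd4* (-1.98 ± 0.42, adjusted p = 0.0288), *Tgfbr2* (-1.49 ± 0.30, adjusted p = 0.0263), *Stat5b* (-1.48 ± 0.30, adjusted p = 0.0273) and *Runx2* (-1.45 ± 0.30, adjusted p = 0.0282) fell as well, each call lost without RT replicate 1 and without COLD replicate 1. The calls of *Tgfbr2*, *Stat5b* and *Runx2* were also lost without RT replicate 2 and without COLD replicate 2, and that of *Gramd4* without COLD replicate 2. All but *Gramd4* were named after their values were seen.

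Copies of ribosomal protein genes were among the falls. Of the 56 fallen genes 7 were annotated pseudogenes (12.5%), against 20 of 5954 tested genes (0.336%) and 0 of the 128 risen, among them *Rps12-ps3* (151 and 80.4 CPM to 23.1 and 8.29), *Rpl27-ps3*, *Rpl36a-ps1*, *Rpl13a-ps1* and *Gm11808*, and *Rps27rt*, a retrogene, went from 735 and 750 CPM to 152 and 182. Reads of such copies can be shared with the parent genes, so their values are uncertain. *Wdr89* fell from 253 and 233 CPM to 67.7 and 64.7 (-1.95 ± 0.24, adjusted p = 0.00196). *Rps27rt* and *Wdr89* were lower in COLD in the other cells too, from 713 to 136 and from 258 to 65.7 CPM in classical monocytes. In the second line, where RT libraries were of kit version 3, all 7 pseudogenes were higher in both COLD libraries, as were 17 of the 20 pseudogenes tested. *Wdr89* was higher there too, at 18.7 and 23.2 CPM at RT and 97.5 and 70.6 in COLD, as was *Rps27rt*, at 22.7 and 38.8 against 198 and 282. The ribosomal protein genes *Rps12*, *Rpl36a*, *Rpl35*, *Rpl7a*, *Rplp2* and *Rpl13a*, named after their values were seen, also fell in C57BL/6J and were higher in both COLD libraries of the second line. Of the other 49 fallen genes 35 were lower there in both COLD libraries and 12 higher, against 2853 and 1833 of all 5934 tested genes that were not pseudogenes.

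No gene was called by edgeR in the cold in the lists of immediate early genes (20 tested, median log2 fold change 0.01, 5 at an unadjusted p under 0.05), glucocorticoid-response genes (9, 0.05, 2 unadjusted) and sterol synthesis genes (13, -0.04, 1 unadjusted). The same held for lists of other cell types, with neutrophil genes at a median of -0.94 (8 tested, 1 unadjusted), erythroid genes at 1.55 (5, 1 unadjusted), endothelial genes at -0.02 (4, 0 unadjusted), stromal genes at -1.43 (4, 0 unadjusted), B cell genes at -0.07 (3, 0 unadjusted) and adipocyte genes at 1.03 (2, 0 unadjusted). Platelet, T cell and NK cell lists had 1 testable gene each and no call. With the replicate block the immediate early gene *Hspa1a*, a heat shock protein gene, passed (1.06, adjusted p = 0.0384), as it did in the restricted set (1.34, adjusted p = 0.0207), and the neutrophil genes *S100a8* (-2.44, adjusted p = 0.0234) and *G0s2* (-1.13, adjusted p = 0.0471) passed with the block. Of 15 lipid-handling genes *Fabp5*, *Plin2* and *Nr1h3* rose, and 6 rose with the replicate block and 5 in the restricted set. The adhesion genes *Itgal* and *Itga4* fell. Neutrophil genes summed to 7058 and 8317 CPM at RT, 1165 and 5083 in COLD and 2068 and 19473 under CL, and erythroid genes to 5935 and 937, 5545 and 12200, and 9.53 and 37933 CPM.

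Under infusion of the beta3 agonist only *Ly6a* was called of 5954 genes (0.0168%), at 35.6 and 33.2 CPM at RT and 470 and 333 under CL (3.43 ± 0.31, adjusted p = 0.00103), while 476 genes had an unadjusted p under 0.05. DESeq2 called the same gene. With the first 4 genes of the rule summing to at least 4, *Ly6a* was not among the 5 genes called, and over all 10 libraries no gene was called by edgeR (717 unadjusted). The call was lost without RT replicate 2, where no gene was called and 579 passed unadjusted, and in the restricted set (1.76, adjusted p = 0.271), where *Ly6a* was at 126 and 58.4 CPM under CL and *Retnla* fell instead (-2.92 ± 0.37, adjusted p = 0.00785). With the replicate block 24 genes were called. Below the threshold with the smallest p stood *Cavin3* (4.23 ± 0.75), *Asprv1* (3.19 ± 0.59), *Hist1h2bc* (1.64 ± 0.31) and *Fabp5* (1.91 ± 0.36), each with an adjusted p of 0.168, and on the negative side *Wdr89* (-1.32 ± 0.25, adjusted p = 0.168) and the ribosomal copies *Rpl7a-ps5*, *Rpl10-ps3*, *Gm11808* and *Rpl9-ps6* (each 0.268). With the block *Cavin3*, *Asprv1* and *Fabp5* (each adjusted p = 0.0326), *Hist1h2bc* (adjusted p = 0.0454) and *Wdr89* (adjusted p = 0.0473) passed, and the 4 ribosomal copies did not. The interferon list had a median of 0.67 with 33 of 36 genes above 0 and no call. Among lists of other cell types, also without a call, stromal genes had a median of 3.79 (4 tested, 4 at an unadjusted p under 0.05). Erythroid genes were at 2.89 (5 tested, 2 unadjusted) and adipocyte genes at 2.76 (2 tested, 1 unadjusted). Dendritic, T cell and NK cell lists were below 0, at -0.84, -2.63 and -0.03. CL replicate 1 brought only 52 cells, and without it 40 genes were called, against 10 without CL replicate 2.

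Compared with each other, COLD and CL differed in 16 genes (0.269% of those tested), 15 higher in COLD. *Cxcl10* (3.16 ± 0.27, adjusted p = 0.000725), *Cd72* (3.35 ± 0.44, adjusted p = 0.0099) and *Ccl7* (2.36 ± 0.34, adjusted p = 0.0128) were among them, as were *Ifit2*, *Ifit3*, *Usp18*, *Cxcl16*, *Slamf7*, *Pclaf*, *Top2a*, *Rgs1*, *Stmn1*, *Ccnd1*, *Ccl2* and *H2-Aa*. *Cxcl10* and *Cd72* kept their calls without any 1 library. *Ccl7*, *Ifit2*, *Usp18*, *Cxcl16*, *Slamf7*, *Pclaf* and *Top2a* lost theirs without COLD replicate 1 and without CL replicate 2, *Slamf7* also without RT replicate 1 and *Usp18* also without COLD replicate 2. *Ifit3*, *Ccl2* and *Stmn1* lost theirs without CL replicate 2, and *H2-Aa* without CL replicate 2 or any 1 RT or COLD library. *Rgs1* and *Ccnd1* were not called without CL replicate 2 either. Of the 16 genes, 14 could be tested in the restricted set, where *Cxcl10*, *Ccl7*, *Ccl2*, *Ifit2* and *Rgs1* kept their calls and 9 lost them. Among the lost, *Cd72* (3.03, adjusted p = 0.0752), *Slamf7* (2.65, adjusted p = 0.104) and *Ifit3* (2.59, adjusted p = 0.0898) had log2 fold changes near those over all members, while *H2-Aa* (0.26, adjusted p = 0.929) and *Stmn1* (0.42, adjusted p = 0.887) did not. The 1 gene lower in COLD was *Retnla*, at 1.74 and 3.67 CPM against 6.76 and 152 under CL (-5.26 ± 0.90, adjusted p = 0.0362), a call lost without CL replicate 2 or any 1 RT or COLD library, and in the restricted set (-3.03, adjusted p = 0.162). *Ifitm1*, *Pi16*, *Hist1h2bc* and *Wfdc21* came next on that side, each at an adjusted p of 0.0933, and all but *Hist1h2bc* passed with the block (adjusted p = 0.0251 for *Ifitm1*, 0.00665 for *Pi16* and 0.00469 for *Wfdc21*); *Pi16* is a stromal gene and stood at 221 CPM in the library with the stromal RNA. With the replicate block 43 genes were called, 26 of them higher in COLD, and in the restricted set 8, all higher. The balance of directions rested on 1 library and on the filter: without CL replicate 1, 67 genes were called, 21 higher and 46 lower in COLD, without the filter on low counts 99 were higher and 132 lower, and without CL replicate 2 there were 3, all higher.

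The last question was whether the cold response of these cells was that of their nearest relatives. A class by treatment term, with the library as a block, compared nonclassical with classical monocytes over 7694 genes and called 61 (0.793%), 47 of them with a lower response in the nonclassical cells. In the restricted set, where NK cell genes still summed to 24.4 to 220 CPM in the classical cells of these libraries, against 325 to 3164 among all classical cells, 134 genes were called, 68 with a higher and 66 with a lower response, so that the excess of lower responses was not seen there, and 41 of the 58 that could be tested there were shared. The count was 33 without RT replicate 2, 38 without COLD replicate 1, 84 without RT replicate 1, 98 without COLD replicate 2, 130 without CL replicate 1 and 127 without CL replicate 2. *Cd63*, a tetraspanin of lysosomes, was at 20.8 and 73.7 CPM at RT and 87.3 and 102 in COLD in nonclassical cells, but at 19.99 and 10.9 and then 571 and 537 in classical cells (difference -4.27 ± 0.66, adjusted p = 0.00276). *Hmox1*, heme oxygenase, was at 424 and 427 CPM at RT and 505 and 198 in COLD in nonclassical cells, against 56.7 and 37.5 and then 538 and 357 in classical cells (-3.61 ± 0.39, adjusted p = 8.16e-05). *Pparg*, a nuclear receptor of fatty acids, was already at 96.0 and 99.0 CPM at RT in the nonclassical cells, and at 2.42 and 6.70 in classical cells, which reached 77.4 and 51.4 in COLD (-3.94 ± 0.45, adjusted p = 0.000107). *Ccl8* (-3.94 ± 0.86, adjusted p = 0.0361) and *Ctsk* (adjusted p = 0.00263) completed the 5 largest, *Ctsk* with 0 in both RT libraries of classical cells and 57.9 and 79.3 CPM in COLD against 3.79 and 15.6 and then 12.2 and 7.77 in nonclassical cells.

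Of the lipid-associated macrophage list 6 of 13 tested genes responded less in nonclassical than in classical monocytes (*Trem2*, *Plin2*, *Ctsb*, *Cd63*, *Lgals3* and *Cd9*) and none more. In classical monocytes all 13 rose in the cold, with a median log2 fold change of 2.71, where 558 of all 8763 genes tested rose. No gene of 39 interferon genes and none of 9 MHC class II genes differed in response among all members, with median differences of 0.18 and 0.07; in the restricted set *Ifit1* was called with a higher response (adjusted p = 0.034). Nonclassical identity genes responded less in 4 of 24 (*Cd36*, *Eno3*, *Fcgr4* and *Tgm2*). Among the 14 genes with a higher response in nonclassical cells, *Ccl5* (4.81 ± 0.53), *Klrk1* (2.49 ± 0.48), *Stmn1* (2.20 ± 0.47) and *Ccnd2* (2.17 ± 0.38) had large values; *Ccl5* and *Klrk1* are genes of NK and T cells, and classical cells held 2778 and 5141 CPM of *Ccl5* at RT. In the restricted set *Ccl5* passed (2.43, adjusted p = 0.0146) and *Klrk1*, *Stmn1* and *Ccnd2* did not, *Stmn1* with a difference of -0.11. *Ly6c1* (3.95 ± 0.88) rested on COLD replicate 1, at 182 CPM against 2.05 in COLD replicate 2, and was at -0.37 without it. Under CL 11 genes (0.143%) differed in response between the monocyte kinds, led by *Gzma*, *Ppp1r14b*, *Sptbn1*, *Rgs1* and *Lgals1* on the higher side and *Hmox1*, *Apoe*, *Lgmn*, *Slc16a3* and *G0s2* on the lower, and none was called by edgeR in the restricted set, where 342 had an unadjusted p under 0.05.

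**Figure D5:**
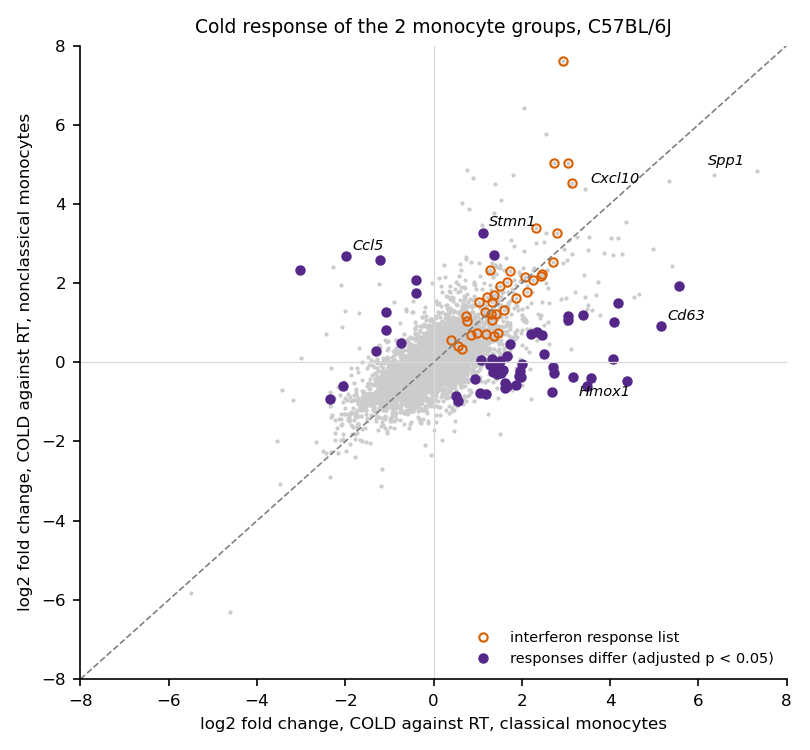
Log2 fold changes of COLD against RT in classical (horizontal) and nonclassical monocytes (vertical) of C57BL/6J mice for 5887 genes tested in both, 1 of which lies outside the axes. Filled purple points are 58 of the 61 genes whose responses differed, open orange circles the 36 interferon-response genes, and the dashed line marks equal responses. Most purple points lie to the right of the line near a vertical value of 0, and the orange circles lie along it, a few of them well above it.

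Against C1q macrophages 712 of 9807 genes (7.26%) differed in cold response, 436 with a higher response in nonclassical monocytes. This class pools all C1q macrophages of a library, and the part of a changed makeup of the class in these differences was not tested. In these macrophages 1736 of all 11535 genes tested rose in the cold and 1656 fell. Of 9 MHC class II genes 7 responded more, with a median difference of 3.05 (6 in the restricted set); 5 rose in the members, and 7 fell in macrophages. *H2-Eb1* was at 643 and 973 CPM at RT and 4314 and 3688 in COLD in the members, and at 10266 and 13146 and then 2241 and 2053 in macrophages (4.75 ± 0.21, adjusted p = 2.13e-18). Chemokine genes responded more in 9 of 11, also with a median difference of 3.05, and immediate early genes in 17 of 21. No immediate early gene was called in the members, and 13 of 21 fell in macrophages. Against classical monocytes 1 of 11 chemokine genes (*Ccl5*) and 0 of 20 immediate early genes differed, with median differences of -0.17 and -0.16. In the restricted set 2 and 1 responded more than in classical monocytes. Of the chemokine genes 7 of 11 also rose in classical monocytes. Lipid-associated macrophage genes responded less in 8 of 13, *Trem2* (-2.86 ± 0.34) and *Lgals3* (-2.86 ± 0.19) among them, and *Ctsk* (-6.63 ± 0.97), *Phlda3* (-4.27 ± 0.64) and *Retnla* (-3.59 ± 0.62) had the largest negative differences. *Dnase1l3*, *Rac3*, *Cd72* and *Iigp1* led the positive side with *H2-Eb1*, and *Dnase1l3*, *Rac3* and *Iigp1* averaged 15.8, 5.84 and 8.81 CPM in the COLD members. *Rac3* and *Iigp1* were not called in the restricted set (adjusted p = 0.108 and 0.192). Without RT replicate 1 the count was 412, and without RT replicate 2 it was 426. Without CL replicate 1 the split was 492 higher and 501 lower, and without the filter on low counts 342 and 425.

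In the second line there was 1 library for each genotype and temperature, so genes were not tested. The targeted gene, *Adrb1*, was low in the members, at 20.4 (WT) and 23.3 CPM (KO) at RT and 5.69 and 5.71 in COLD, and *Pdgfra*, whose promoter drives the Cre, was found in at most 1.40% of the members of any library. Of the 128 genes that rose in C57BL/6J mice, 85 were higher in both COLD libraries than in both RT libraries of this line, where 31.1% of all tested genes were, and 4 were lower in both. Of the 56 that fell, 35 were lower in both COLD libraries, where 48.0% of all tested genes were, and 19 were higher. *Ccl7* was at 0.775 (WT) and 1.35 CPM (KO) at RT and 481 and 592 in COLD, *Ccl2* at 36.4 and 14.5 against 1005 and 1093, and *Spp1* at 1.64 and 1.33 against 386 and 286. *Cxcl10* was at 8.94 and 17.6 CPM at RT and 95.02 (WT) and 544 (KO) in COLD. *Itgal* was at 813 and 877 CPM at RT and 392 and 520 in COLD, *Spn* at 582 and 639 against 183 and 238, *Itga4* at 1259 and 1371 against 213 and 233, and *Slc12a2* at 540 and 486 against 69.0 and 58.9. *Pglyrp1*, the fourth identity gene that fell in C57BL/6J, was not lower here in COLD, at 425 and 415 CPM at RT and 427 and 582 in COLD. *Retnla*, at 1213 CPM in WT and 75.7 in KO at RT, was at 44.1 and 24.7 in COLD; in the restricted set it was at 1074 and 10.1 CPM at RT and 49.5 and 26.7 in COLD, so that KO at RT lay below both COLD libraries. *Ifit1* did not separate, with 18.7 and 117 CPM at RT and 40.3 and 114 in COLD, and neither did *Oasl1*, at 22.0 and 41.0 against 34.3 and 34.1, or *Ifit2*, at 15.5 and 12.3 against 12.3 and 53.7. *H2-Aa* was at 390 and 552 CPM at RT and 1483 (WT) and 522 (KO) in COLD, so that WT was higher in COLD and KO was not; in the restricted set it was at 349 and 273 against 776 and 412.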

How the data were processed

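Single-cell RNA was measured in 20 libraries, of which the 10 Lin+ libraries were used for the comparisons. The expected counts deposited by the authors are UMI counts made with Cell Ranger 3.0.1 against mm10 and lowered by the authors' SoupX estimate of cell-free RNA, in which *Fabp4* and *Car3* were taken as not expressed. They are therefore not whole numbers, and low values of genes abundant in other cells remain uncertain. Cells under 10% mitochondrial counts, under 15000 counts and with 500 to 4000 genes were kept.

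The members and gene lists were chosen with earlier results of these data known. Counts were summed per library and kind of cell, rounded and tested with edgeR 4.0.16 (TMM, filterByExpr, quasi-likelihood) in R 4.3.3 over the 6 C57BL/6J libraries, without the 9 genes of the rule and, against classical monocytes, without 6 genes that chose those. Summed UMIs of the members ran from 114534 to 663546 over these libraries. DESeq2 1.42.0 was an alternative. Another was an edgeR fit over all 10 libraries with terms for line, kit and treatment, and none for genotype. Kit and temperature change together in the second line, so the kit term takes up that line's cold difference. The libraries of that line thus add to the estimate of spread there, and not to the cold difference. Shares were compared by exact permutation tests over libraries (scipy 1.17.1). Libraries of a group came from separate pools of mice, and p-values within C57BL/6J measure the spread between these pools. Share tests over both lines shuffled libraries across lines, so their p-values also take in differences of line, sex, kit and day. The doublet caller run, Scrublet (scanpy 1.11.5), marked 0 to 17 kept cells per library and was taken not to have worked, so the 6% with the highest scores were left out as an alternative.

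Named genes were the 10 with the largest change in each direction that were called, did not overlap between groups and reached a mean of 50 CPM in a group, filled up to 5 by unadjusted p where fewer were called, the 5 largest differences in response per direction, and list members. C57BL/6J libraries with the same replicate number came from 1 experiment per the study's methods, while RT and COLD libraries of the second line were collected on different days and were paired by genotype alone. Their deviations from group means correlated at 0.0843 for RT and COLD, -0.0110 for RT and CL and 0.189 for COLD and CL over 2827 genes, and a fit with the number as a block was made. On simulated counts for COLD against RT with 5620 genes, 99.0% of genes changed 4-fold and 100% of those changed 8-fold were recovered, with 9 false calls. The changed genes were drawn only from those at higher levels, and every gene was given the same fixed spread. Recovery of genes with few counts, or with the spread of the real libraries, was therefore not tested. Results for a few genes are not reported here.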

Additional observations from a re-analysis of the deposited data

Results flagged for a closer look

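Several differences in response between kinds of cell passed a test of the difference itself, and the values of single genes are given with the comparisons above. The cold response differed between nonclassical and classical monocytes in 61 genes, with 14 higher and 47 lower in nonclassical monocytes, and with 68 higher and 66 lower in the restricted set. The response to CL differed between the same kinds in 11 genes, and in no gene in the restricted set (edgeR, 342 at an unadjusted p under 0.05). The cold response differed between nonclassical monocytes and C1q macrophages in 712 genes. In the lineage-negative libraries, which no comparison used, 2241 of 59600 kept cells passed the marker rule. Of these 99.96% carried *Ace*, 88.3% carried *Pdgfra* or *Col3a1* and 0.892% carried *Lyz2*, and 3 reached a sum of 2 over *Cd300e*, *Adgre4* and *Treml4*. None met the conditions of the restricted set.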

How the results depend on the processing

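Of the shares, the named genes of each comparison and the list genes called in the cold, 3 values changed sign: the response differences of *Ly6c1* in the cold without COLD replicate 1 (-0.37, against up to 5.24 without another library), and of *Stmn1* in the cold (-0.11) and *Rgs1* under CL (-0.48) in the restricted set. Of 167 genes called in the cold and testable in the restricted set, 166 had the same sign there, *Tubb5* being the exception. The cold difference in the share of Lin+ cells was -1.86 points after thinning and -5.39 points over cells under 1 count of *Cd79a* plus *Cd3e*. Each passed the threshold in a test that shuffled libraries across both lines. The cold difference in the share of monocytes was -21.9 points in C57BL/6J, -46.4 in the second line, -34.1 with the replicate block (exact sign-flip p = 0.125, the smallest that 4 pairs allow, with pairs of the second line formed by genotype alone) and -41.2 to -29.9 without 1 library, none of which passed. Genes called in COLD against RT numbered 86 with DESeq2, 423 without a filter on low counts, 297 with the replicate block, 279 over all 10 libraries, 97 with a stricter gate and 30 to 286 without 1 library. For CL against RT the counts were 183 without the filter, 24 with the replicate block, 0 over 10 libraries (edgeR, 717 unadjusted), 5 with the stricter gate and 0 to 40 without 1 library. For COLD against CL they were 231, 43, 9 over 10 libraries, 8 in the restricted set and 3 to 67 without 1 library. Responses against classical monocytes gave 187 genes in the cold without the filter, 134 in the restricted set and 33 to 130 without 1 library. Under CL they gave 61 without the filter, 44 with the stricter gate, 0 in the restricted set and 6 to 55 without 1 library. Against macrophages the range without 1 library was 412 to 993. The cause of these moves was not tested, except that fits without a library hold fewer samples. In the fit over 10 libraries the cold difference comes from C57BL/6J alone, because a kit term takes up that of the second line. Of the values of single named genes under these alternatives, 722 of COLD against RT kept their side of the threshold and 182 lost it, and 39 of COLD against CL lost it. CL replicate 1 held 52 members, and the size of change that could be detected under CL was not tested.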

Other observations

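Apart from the genes above, *Retnla* set the KO and WT libraries of the second line apart at RT, at 75.7 and 1213 CPM (10.1 and 1074 in the restricted set), with 1 library each and no test. Erythroid genes, from cells that the Ter-119 antibody captures, summed from 9.53 to 37933 CPM in the members of single libraries, highest in CL replicate 2, which also had the highest neutrophil sum of 19473 CPM.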
